A study of Homo sapiens with 16 samples.

Results

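Ribosome biogenesis genes encode the machinery that transcribes ribosomal RNA, modifies and trims it, and assembles it with ribosomal proteins. A list of 36 such genes was drawn up, and each was looked up by its symbol in the annotation of the array. A probe set that carried that symbol and no other measured 31 of the 36, out of 19775 genes measured in all. NOP56 had 2 probe sets, DKC1 had 3 and BOP1 had 2, each shared with other symbols, GNL3 and EBNA1BP2 had none with a single symbol, and no value is given for these 5. The 31 genes fell by role into 5 genes of RNA polymerase I and its factors, 3 of the box C/D particles and U3, 3 of the box H/ACA particles, 5 nucleolar phosphoproteins and RNA factors, 7 factors of the small subunit and 8 of the large subunit.

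In the nucleolus, RNA polymerase I copies the ribosomal DNA into a long precursor, small nucleolar ribonucleoproteins (snoRNPs) methylate and pseudouridylate it, and large complexes cleave and fold it into the subunits. MYC is known as a transcriptional activator of many of these genes, often through the E-box, a short DNA word. RB, the retinoblastoma protein, is known for holding back E2F target genes of DNA replication, and also for binding UBF, a factor of RNA polymerase I.

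RNA of SAOS, a human osteosarcoma line known for lacking working RB protein, was hybridised to 16 arrays of 1 human design, 1 sample per array. The control group (4 arrays) was wild-type SAOS without transfection, and the other groups (4 arrays each) were SAOS after transient transfection with human RB1, with mouse SMYD2 (a lysine methyltransferase), or with both. No group received an empty vector, so RB or SMYD2 cannot be told apart from transfection itself in a comparison with the control, whereas RB with SMYD2 against SMYD2 sets transfected cells against transfected cells. The labels do not give the share of cells that took up DNA, the time after transfection or whether arrays came from separate cultures; p-values therefore speak only of the variation among these arrays, some or all of which may be technical. In bulk RNA, fewer cells with a transcript and less of it per cell cannot be told apart. Arrays carry the replicate numbers 1, 3, 4 and 5 in every group, and values below are listed in that order.

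RB1 itself, which checks the labels, averaged 6.48 ± 0.319 log2 signal in control (SD, n = 4 arrays) and 6.85 ± 0.172 in the SMYD2 group, against 7.70 ± 0.341 after RB and 8.67 ± 0.896 after both. In RB against control, 1 of the 2 probe sets of RB1 was higher, and both were in RB plus SMYD2 against control. SMYD2 differed from control by 0.11 ± 0.08 (SE) on the log2 scale in the cells given mouse SMYD2 (adjusted p = 0.991, limma), and whether its human probe sets read the mouse transcript was not tested. Of the bone markers, RUNX2 (mean 12.42), COL1A1 (13.54) and ALPL (12.15) were high on all 16 arrays and SPP1 (5.62) was low. PTPRC of blood cells (3.82), CDH5 of endothelium (4.19) and MYH1 of muscle (3.68) were low, whereas EPCAM (9.40) and TUBB3 (12.54), used as epithelial and neural markers, were not. SMYD2 array 1 and control array 1 stood apart in the excess of 3′ over 5′ signal of ACTB, a measure of RNA integrity, at 3.53 and 2.46 log2 units against 0.541 to 1.63 on the other 14 arrays. By the same measure for GAPDH, SMYD2 array 1 was the highest of the 16, at 0.161. Control array 1, at 0.0551, lay within the -0.0063 to 0.104 of the other 14 arrays. SMYD2 array 1 also held the lowest of the 16 values for 12 of the 31 ribosome biogenesis genes and the highest for 7.

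Most ribosome biogenesis genes differed little between groups, and a small set was lower in some comparisons of cells with RB against cells without. FBL, the methyltransferase of the box C/D snoRNPs, showed the widest difference: it was 1.40-fold lower with RB than in control and 1.66-fold lower with RB and SMYD2 than with SMYD2 alone. NOP58 also fell with RB against control, and NHP2, LYAR and GAR1 fell with both against SMYD2. In those comparisons no gene of the 31 rose, whether or not the replicate number was a block. NHP2 and GAR1 differed by only -0.05 and -0.06 in RB against control. In SMYD2 against control they were higher by 0.12 and 0.11, without passing.

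With RB against control, 2 of 31 genes fell and 0 rose (limma, 4 arrays a group), where 2.96% of all genes were called in either direction, 1.71% as lower and 1.24% as higher. With the replicate number as a block, 3 fell, against 3.47% of all genes called as lower in that fit. In RB plus SMYD2 against control, 2 fell, where 7.2% of all genes were called in either direction and 4.2% as lower, and 4 with the block, where 6.78% were. In RB plus SMYD2 against SMYD2, 4 fell, where 7.19% of all genes were called in either direction, 4.25% as lower and 2.94% as higher, and 6 with the block, where 7.6% were called as lower. This last comparison shares no array with RB against control, although 1 fit over all arrays set the spread for both. The median difference of the 31 genes was -0.01 in RB against control and -0.03 in RB plus SMYD2 against SMYD2, beside 0.01 and 0.01 over all genes. In RB plus SMYD2 against control it was -0.06, with 22 of the 31 below 0, beside 0.02 and 43.1% below 0 over all genes. Within 0.25 log2 units of 0 lay 28 of the 31 in RB against control, and 88.1% of all genes.

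**Figure D1:**
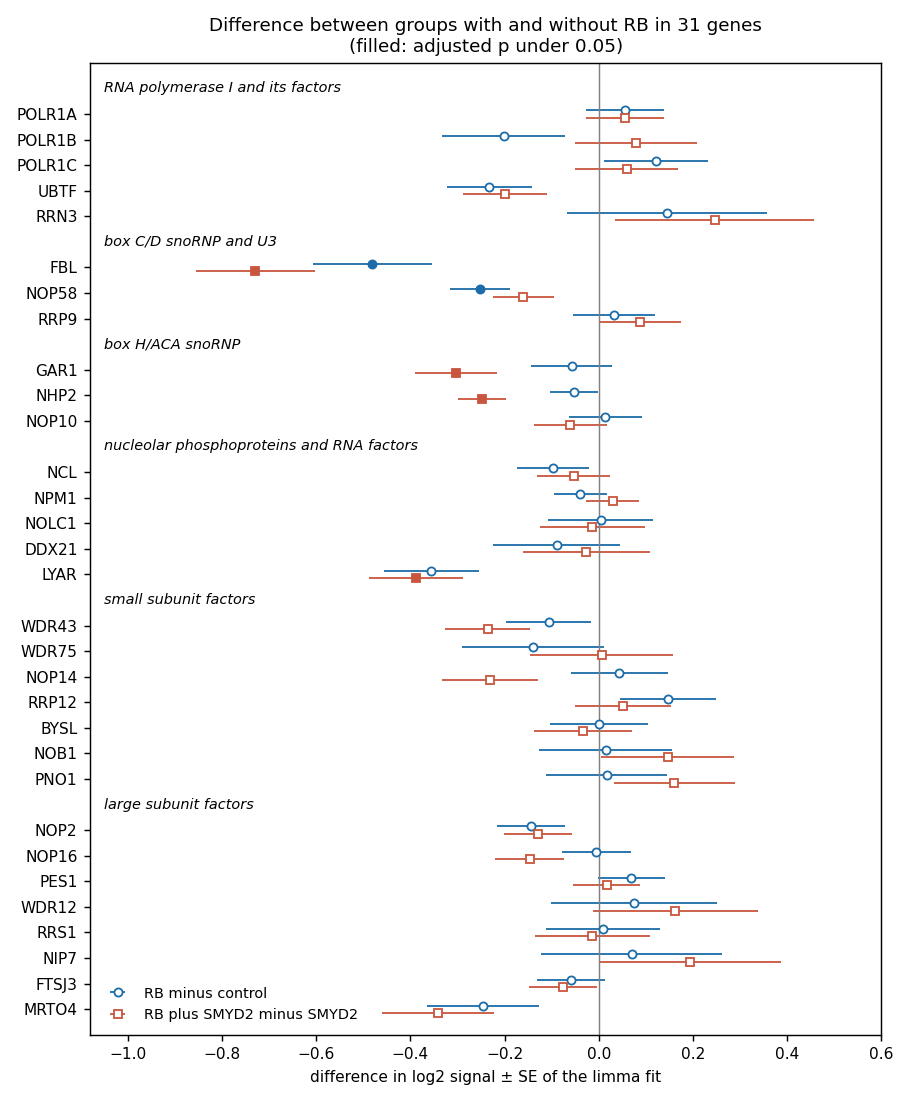
Difference in log2 signal (horizontal axis, ± SE of the limma fit, 4 arrays a group) of each of the 31 genes, grouped by role, in RB minus control (circles) and RB plus SMYD2 minus SMYD2 (squares); filled marks passed an adjusted p of 0.05. FBL lies farthest to the left in both, at -0.48 and -0.73, and most other genes lie near 0.

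Without the replicate block, the call of FBL did not rest on 1 array in RB plus SMYD2 against SMYD2. It was close to the threshold in RB against control, where FBL passed more clearly with the block. The fits that left out an array had no block. Leaving out each of the 16 arrays in turn kept the call of FBL 16 of 16 times in RB plus SMYD2 against SMYD2 and 16 of 16 in RB plus SMYD2 against control. In RB against control the calls of FBL and of NOP58 were each kept 4 of 16 times, and the adjusted p of FBL reached 0.176 without control array 5. Without SMYD2 array 1, 3 genes passed as lower in RB against control (FBL, NOP58 and LYAR) and 6 in RB plus SMYD2 against SMYD2 (FBL, NOP58, GAR1, NHP2, LYAR and MRTO4), where 2.71% and 4.82% of all genes were called as lower in the same fits.

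The promoters of FBL, LYAR, GAR1 and NHP2, which fell in RB plus SMYD2 against SMYD2, are shown with the E-box CACGTG marked. It is the word that MYC and its partner MAX are known to bind, and whether they acted on these genes was not tested. The windows run from 250 bases before to 50 after the start of a RefSeq transcript of GRCh38.p14, and capitals mark CACGTG. BYSL, which did not pass, is added for comparison. The positions are chr19:39846330-39846629 (minus strand) for FBL, chr4:4289972-4290271 (minus strand) for LYAR, chr4:109815512-109815811 (plus strand) for GAR1, chr5:178153836-178154135 (minus strand) for NHP2 and chr6:41921249-41921548 (plus strand) for BYSL, each printed 5′ to 3′ along the gene.
FBL: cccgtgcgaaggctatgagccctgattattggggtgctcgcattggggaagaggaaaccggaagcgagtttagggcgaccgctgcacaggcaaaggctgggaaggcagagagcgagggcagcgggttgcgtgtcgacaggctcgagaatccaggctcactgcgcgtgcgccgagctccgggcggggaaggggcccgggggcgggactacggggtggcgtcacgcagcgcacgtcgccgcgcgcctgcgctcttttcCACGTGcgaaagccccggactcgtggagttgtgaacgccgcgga
LYAR: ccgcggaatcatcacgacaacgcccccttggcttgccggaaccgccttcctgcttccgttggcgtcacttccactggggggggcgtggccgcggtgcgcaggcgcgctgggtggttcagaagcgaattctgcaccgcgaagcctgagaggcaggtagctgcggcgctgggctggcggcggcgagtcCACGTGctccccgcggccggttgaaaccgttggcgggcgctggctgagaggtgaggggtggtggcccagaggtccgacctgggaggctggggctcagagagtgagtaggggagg
GAR1: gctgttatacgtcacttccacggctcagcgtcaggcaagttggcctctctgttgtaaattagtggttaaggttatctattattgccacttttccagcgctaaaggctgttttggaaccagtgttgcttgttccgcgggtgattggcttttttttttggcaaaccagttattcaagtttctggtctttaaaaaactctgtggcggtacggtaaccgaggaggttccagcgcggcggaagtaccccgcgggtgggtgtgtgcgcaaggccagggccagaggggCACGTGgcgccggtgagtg
NHP2: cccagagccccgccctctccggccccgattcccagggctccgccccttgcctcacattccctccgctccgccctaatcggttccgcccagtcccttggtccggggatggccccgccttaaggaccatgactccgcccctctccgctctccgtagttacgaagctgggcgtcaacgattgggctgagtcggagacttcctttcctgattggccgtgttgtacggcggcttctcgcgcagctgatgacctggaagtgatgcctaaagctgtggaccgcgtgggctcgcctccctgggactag
BYSL: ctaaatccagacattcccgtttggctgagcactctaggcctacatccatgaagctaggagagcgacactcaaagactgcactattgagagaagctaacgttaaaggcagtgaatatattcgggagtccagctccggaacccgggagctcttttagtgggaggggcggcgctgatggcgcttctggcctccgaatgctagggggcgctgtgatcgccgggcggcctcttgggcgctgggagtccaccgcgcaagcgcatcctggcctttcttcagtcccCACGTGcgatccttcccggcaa
The E-box begins 6 bases past the start in FBL, 64 bases before it in LYAR, 31 past it in GAR1 and 28 past it in BYSL, and the NHP2 window holds none. LYAR and GAR1 each have 2 windows, and the one with the word is shown.

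Over both strands, CACGTG was in 16 of the 40 windows of the ribosome biogenesis genes (40%; 31 of the 36 genes had a window) and in 7.26% of all 35116 windows of that length. It was in 26.0% of the windows of other biogenesis genes, 5.13% of those of ribosomal protein genes and 6.67% of those of genes of the G1/S step and DNA replication. The E2F words TTTCGCGC, TTTGGCGC, TTTCCCGC and TTTGCCGC, searched on both strands, were in 2 of the 40 windows (5%), in 3.31% of all windows and in 42.2% of the windows of the G1/S and replication genes. TTTGAA, the word known as CHR, was in 5 of the 40 (12.5%) and in 15.2% of all windows. Among measured genes with a window, CACGTG was found in 5 of the 6 that passed in any pairwise comparison with or without the block, and in 8 of the 21 that did not. These are counts of genes, and genes with 2 windows, such as LYAR and GAR1, had more room for a match. The 6 genes were picked from these same data, so the counts were not tested. A match is a description of these letters, not a binding site or a cause.

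Among the box C/D genes, FBL encodes fibrillarin, the enzyme that methylates ribosomal RNA. FBL read 12.08, 12.11, 12.44 and 12.46 log2 signal in control, and 12.36, 12.23, 12.48 and 12.48 with SMYD2. It read 11.55, 11.58, 11.95 and 12.09 with RB, and 11.45, 11.60, 11.77 and 11.81 with both. All 4 arrays with both constructs were below every control and SMYD2 array, while the highest RB array, at 12.09, overlapped the lowest control array, at 12.08. Arrays 1 and 3 were lower than arrays 4 and 5 in every group, and between same-numbered arrays RB was lower than control by a difference of -0.54, -0.53, -0.49 and -0.37. The fitted difference was -0.48 ± 0.13 (SE) in RB against control (adjusted p = 0.0490, limma) and passed more clearly with the replicate block (adjusted p = 0.000266). It was -0.61 ± 0.13 in RB plus SMYD2 against control (adjusted p = 0.00512), -0.73 ± 0.13 against SMYD2 (adjusted p = 0.00137) and -0.60 ± 0.13 in RB against SMYD2 (adjusted p = 0.0145, limma). These comparisons share arrays in part, and the single probe set of FBL gives no second reading.

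NOP58, a scaffold of the same box C/D particle, read 12.27, 12.24, 12.39 and 12.27 in control and 12.08, 12.25, 12.32 and 12.30 with SMYD2. With RB it read 12.12, 12.09, 12.01 and 11.95, and with both 12.03, 12.11, 12.06 and 12.11. RB arrays and control arrays did not overlap, and SMYD2 array 1 lay among the arrays with RB. NOP58 fell by 0.25 log2 units in RB against control, a difference of -0.25 ± 0.06 (SE, adjusted p = 0.0416, limma). It was -0.21 ± 0.06 lower in RB plus SMYD2 against control (adjusted p = 0.0536, and 0.0292 with the block) and did not pass against SMYD2 (-0.16 ± 0.06, adjusted p = 0.163). RRP9, a protein bound to the U3 snoRNA, did not pass, at 0.03 ± 0.09 in RB against control and 0.09 ± 0.09 in RB plus SMYD2 against SMYD2.

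**Figure D2:**
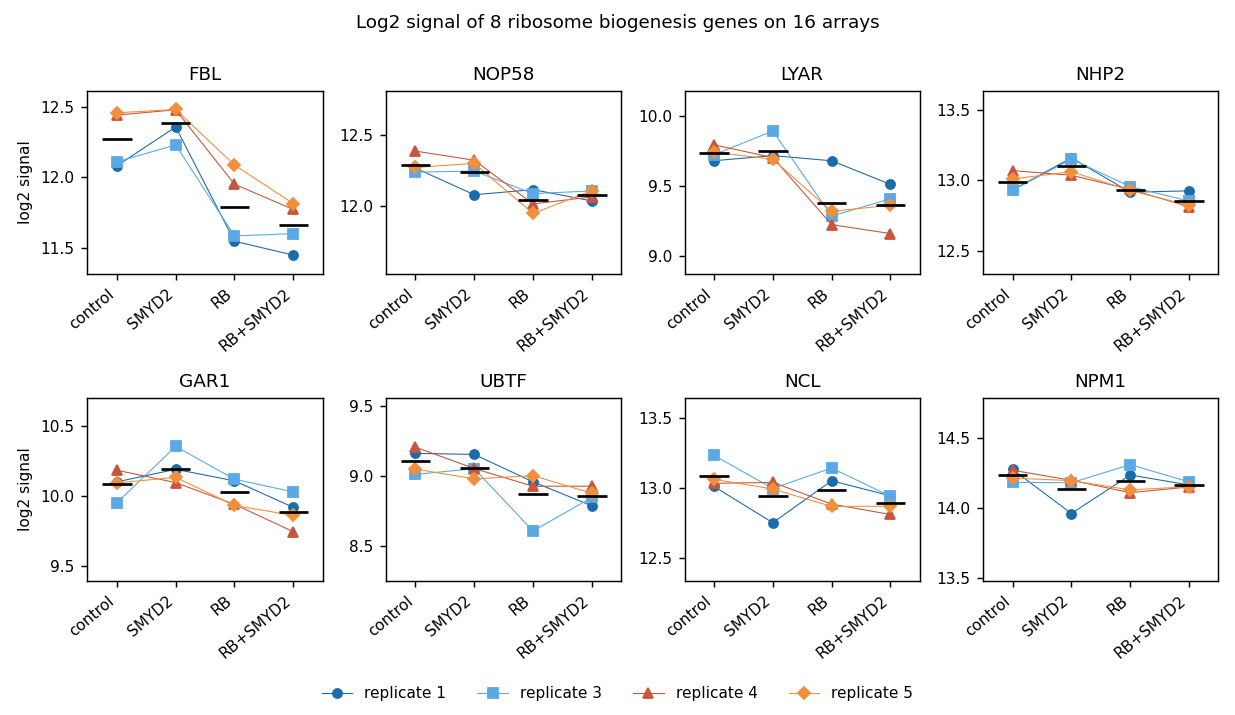
Log2 signal (vertical axis, the same span of 1.3 units in each panel) of 8 genes in the 4 groups; each point is an array, lines join arrays with the same replicate number and bars are means of 4 arrays. FBL drops from means of 12.27 and 12.39 without RB to 11.79 and 11.66 with it. NCL and NPM1, by their brightest probe sets, show no such step.

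Of the box H/ACA genes, whose particle converts uridine in ribosomal RNA to pseudouridine, NHP2 and GAR1 fell with both constructs against SMYD2. NHP2 read 12.93, 12.93, 13.07 and 13.01 in control, and 13.16, 13.15, 13.04 and 13.06 with SMYD2. It read 12.92, 12.96, 12.94 and 12.93 with RB, and 12.93, 12.85, 12.81 and 12.82 with both. All 4 arrays with both lay below every SMYD2 array and every control array, the highest of them only just below the lowest control array, and SMYD2 arrays 1 and 3 were the highest of all. The difference against SMYD2 was -0.25 ± 0.05 (SE, adjusted p = 0.00490, limma), and its call was kept in 16 of 16 fits that left out an array. The difference was below 0 at all 4 replicate numbers, as it was for 14.8% of all genes. Against control it was -0.13 ± 0.05 (adjusted p = 0.151), and in RB against control -0.05 ± 0.05 (adjusted p = 0.777).

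GAR1 ranged over 10.09 to 10.35 with SMYD2 and 9.75 to 10.03 with both, without overlap, and over 9.95 to 10.18 in control and 9.93 to 10.12 with RB. Its difference against SMYD2 was -0.30 ± 0.09 (SE, adjusted p = 0.0409, limma), which was kept in 8 of 16 fits that left out an array and had an adjusted p of 0.150 without RB plus SMYD2 array 4. GAR1 differed by -0.06 ± 0.09 in RB against control (adjusted p = 0.869). NOP10, the smallest protein of the particle, did not pass in either comparison, at 0.01 ± 0.08 and -0.06 ± 0.08. The test of whether RB differed in its effect with and without SMYD2 gave -0.20 ± 0.07 for NHP2 and -0.25 ± 0.12 for GAR1, and neither passed (adjusted p = 1.00 for both, limma).

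None of the 5 genes of RNA polymerase I and its factors passed in any of the 6 pairwise comparisons, with or without the block. UBTF, which encodes UBF, read 9.16, 9.01, 9.20 and 9.05 in control, and 9.15, 9.05, 9.05 and 8.98 with SMYD2. It read 8.96, 8.61, 8.93 and 9.00 with RB, and 8.79, 8.85, 8.93 and 8.88 with both. Every RB array was below every control array, though by as little as the gap from 9.00 to 9.01, and every array with both was below every SMYD2 array. The difference was -0.23 ± 0.09 (SE) in RB against control (adjusted p = 0.231, limma) and -0.20 ± 0.09 in RB plus SMYD2 against SMYD2 (adjusted p = 0.225). All 5 probe sets of UBTF were lower in both comparisons, by -0.15 to -0.23 in the first. Non-overlap of the arrays in the lower direction was met by 4 of the 31 genes in RB against control (UBTF, NOP58, LYAR and NOP2), and by 5.2% of all genes. In RB plus SMYD2 against SMYD2 it was met by 6 of the 31 (UBTF, FBL, GAR1, NHP2, LYAR and WDR43), and by 6.61% of all genes.

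POLR1B, the second largest subunit of the polymerase, read 8.17, 8.02, 7.83 and 7.63 in control, and 7.82, 7.69, 7.88 and 7.71 with SMYD2. It read 8.12, 7.48, 7.59 and 7.65 with RB, and 7.89, 7.97, 7.75 and 7.81 with both. The groups overlapped, and the spread was wide in control and RB. The difference was -0.20 ± 0.13 (SE, adjusted p = 0.584, limma) in RB against control and 0.08 ± 0.13 in RB plus SMYD2 against SMYD2. The probe sets of POLR1B did not read alike, running from -0.20 to 0.03 in the first comparison and from -0.15 to 0.15 in the second. POLR1A, the largest subunit, POLR1C, which RNA polymerase III also uses, and RRN3, which brings the polymerase to the promoter, differed by 0.06 ± 0.08, 0.12 ± 0.11 and 0.14 ± 0.21 in RB against control. RRN3 was as low as 7.56 on SMYD2 array 1 and 8.12 on control array 1, the arrays with the highest ACTB 3′ excess, whose part in this was not tested.

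Nucleolin (NCL) and nucleophosmin (NPM1), abundant proteins of the nucleolus, did not pass in any comparison, with or without the block. NCL read 13.01, 13.23, 13.03 and 13.06 in control, and 12.75, 13.00, 13.04 and 12.99 with SMYD2. It read 13.05, 13.14, 12.88 and 12.87 with RB, and 12.94, 12.94, 12.81 and 12.87 with both. The groups overlapped except that the arrays with both lay below those of control, and the 95% interval of RB minus control was -0.26 to 0.06 log2 units. NPM1 read 14.27, 14.18, 14.27 and 14.21 in control, 13.96, 14.18, 14.20 and 14.19 with SMYD2, 14.23, 14.31, 14.11 and 14.13 with RB, and 14.16, 14.19, 14.15 and 14.15 with both. Its 95% interval of RB minus control was -0.16 to 0.08. The 3 probe sets of NPM1 did not read alike: the brightest differed by 0.03 in RB plus SMYD2 against SMYD2, and the others by -0.12 and -0.31. All 3 were lower in RB against control, the brightest by -0.04 and the others by -0.12 and -0.195. That interval is of the brightest alone. With the most variable probe set of each gene in place of the brightest, NPM1 was among the 4 genes called in RB plus SMYD2 against SMYD2.

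LYAR, a nucleolar protein that binds precursor RNA, read 9.68, 9.72, 9.79 and 9.74 in control and 9.72, 9.89, 9.70 and 9.69 with SMYD2. It read 9.68, 9.29, 9.23 and 9.32 with RB, and 9.51, 9.41, 9.16 and 9.36 with both. The arrays with both lay below all control and SMYD2 arrays, whereas RB array 1, at 9.68, lay at the level of the lowest control array. LYAR fell against SMYD2 in cells with both, by -0.39 ± 0.10 (SE, adjusted p = 0.0249, limma), and against control, by -0.37 ± 0.10 (adjusted p = 0.0312). The RB arrays against control gave -0.36 ± 0.10 (adjusted p = 0.0717, and 0.0240 with the block). Without RB plus SMYD2 array 4 the adjusted p was 0.105 against SMYD2 and 0.128 against control. Its second probe set was also lower, by -0.35 against SMYD2 and -0.19 in RB against control. NOLC1, a chaperone of snoRNPs, and DDX21, an RNA helicase, did not pass, at 0.00 ± 0.11 and -0.09 ± 0.13 in RB against control. The dimmer probe sets of NOLC1 differed by -0.04 and -0.20 there.

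No factor of the small subunit passed without the block. WDR43, a part of the early processing complex, ranged over 8.74 to 9.01 in control, 8.83 to 9.02 with SMYD2, 8.64 to 8.92 with RB and 8.54 to 8.77 with both. The arrays with both lay below those with SMYD2, with a difference of -0.24 ± 0.09 (SE, adjusted p = 0.137, limma) that passed with the replicate block (adjusted p = 0.0321). NOP14 was next in size, at -0.23 ± 0.10 in that comparison (adjusted p = 0.216) and 0.04 ± 0.10 in RB against control. The other 5 were WDR75 of the early complex, RRP12, which helps to export subunits, BYSL, needed for late small-subunit maturation, NOB1, the nuclease that makes the end of the small-subunit RNA, and PNO1, its partner. The 7 genes lay, in RB against control, between -0.14 for WDR75 and 0.15 for RRP12. BYSL, with its E-box shown above, differed by 0.00 ± 0.10 in that comparison and by -0.03 ± 0.10 in RB plus SMYD2 against SMYD2.

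Of the 8 large-subunit factors, MRTO4, which holds the place of a stalk protein on the maturing subunit, had the widest difference. MRTO4 ranged over 10.89 to 11.07 in control, 10.83 to 11.35 with SMYD2, 10.61 to 10.99 with RB and 10.50 to 10.89 with both. The arrays with both overlapped those with SMYD2 because SMYD2 array 1 was low, and the same-numbered differences were 0.00, -0.46, -0.43 and -0.47. The fitted difference was -0.34 ± 0.12 (SE, adjusted p = 0.102, limma), and it passed with the replicate block (adjusted p = 0.0273) and without SMYD2 array 1 (adjusted p = 0.0430). Against control it was -0.32 ± 0.12 (adjusted p = 0.135, and 0.0400 with the block), and in RB against control -0.25 ± 0.12 (adjusted p = 0.395). Its second probe set was lower by -0.34 and -0.21 in RB plus SMYD2 against SMYD2 and in RB against control.

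NOP2, a methyltransferase of the large-subunit RNA, was lower on every RB array than on every control array, at 9.87 or less against 9.93 or more. Its difference of -0.14 ± 0.07 (SE) did not pass (adjusted p = 0.416, limma). PES1 and WDR12, which work in 1 complex, differed by 0.07 ± 0.07 and 0.07 ± 0.18 in RB against control. RRS1, which helps to bring in the small RNA of the large subunit, NIP7, FTSJ3, a methyltransferase, and NOP16 differed by 0.01 ± 0.12, 0.07 ± 0.19, -0.06 ± 0.07 and -0.01 ± 0.07. The dimmer probe set of NIP7 went the other way, at -0.11. NIP7 read 8.34 on SMYD2 array 1 against 9.35 to 9.62 on the other control and SMYD2 arrays, and WDR12 read 10.38 there, the lowest of 16 for both.

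No gene of the 31 passed in either comparison that adds SMYD2. In SMYD2 against control 0 genes passed in limma (0% of all genes did, and 572 of all genes had an unadjusted p under 0.05), with 1 of the 31 at an unadjusted p under 0.05 and 0 with the block. The differences lay between -0.23 for RRN3 and 0.13 for NOP14, and their median was -0.01. With SMYD2 array 1 left out the median was 0.03. RB plus SMYD2 against RB also gave 0 of 31 (0% of all genes, 856 of which had an unadjusted p under 0.05), with 0 of the 31 at an unadjusted p under 0.05 and 0 with the block. FBL differed by -0.13 ± 0.13 and LYAR by -0.02 ± 0.10 in that comparison. RB1 itself was 0.97 ± 0.31 (SE) higher there (adjusted p = 0.880, limma), and higher at all 4 replicate numbers, as were 9.44% of all genes. It differed by 0.60 ± 0.44 in the test, given below, of the RB effect with and without SMYD2. The level of RB1 and SMYD2 therefore cannot be told apart in either. RB against SMYD2 gave 1, FBL, where 3.25% of all genes were called in either direction and 1.86% as lower. The test of whether RB differed in effect with and without SMYD2 gave 0 of 31, and 0 with the block (0% of all genes). An unadjusted p under 0.05 was met by 1 of the 31 and by 582 of all genes. For FBL the difference was -0.25 ± 0.18 (SE, adjusted p = 1.00, limma), with all 4 replicate numbers below 0. Of the 31 genes, 6 were below 0 and 4 above 0 at all 4 replicate numbers in that test.

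**Figure D3:**
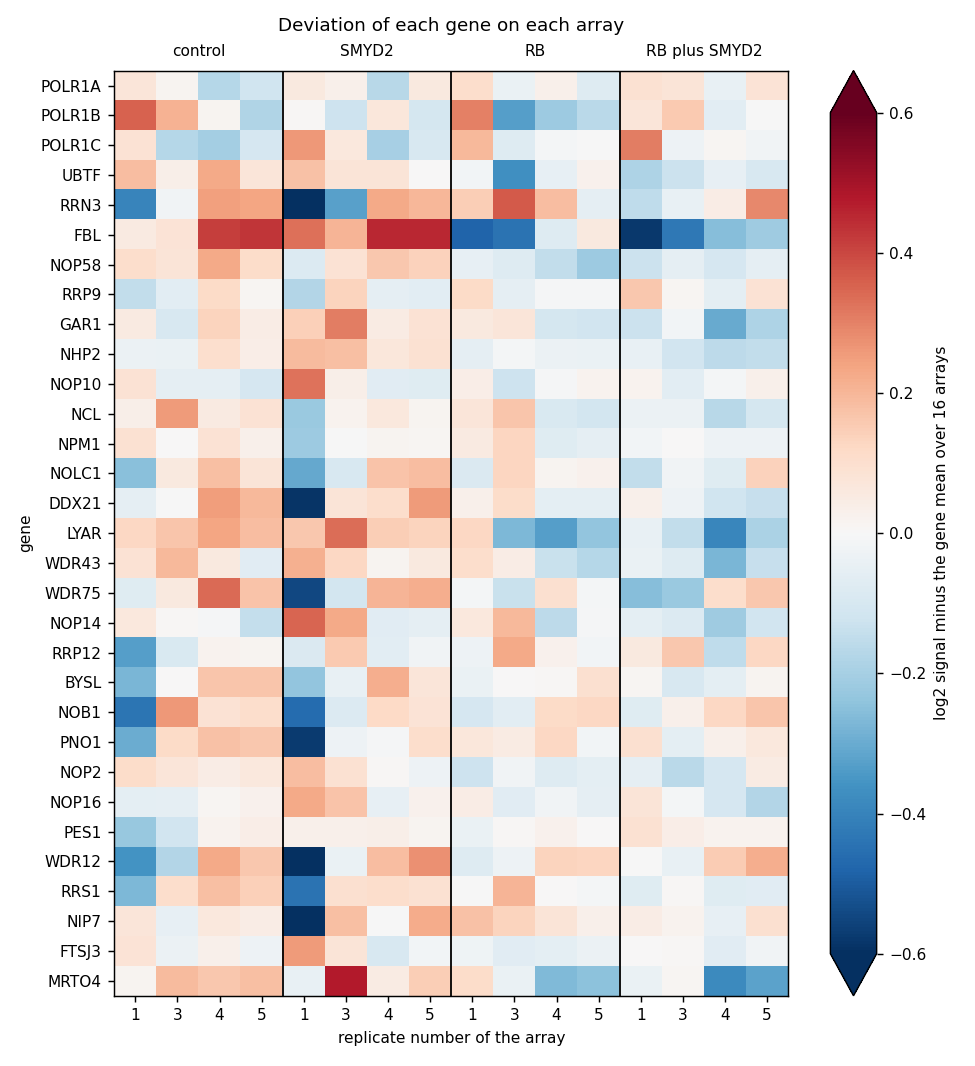
Log2 signal of each of the 31 genes (rows) on each of the 16 arrays (columns, by group and replicate number), minus the mean of that gene over all arrays; blue is lower and red higher, and colours end at 0.6 either way. FBL is below its mean on 7 of the 8 arrays with RB and above it on all 8 without, and SMYD2 array 1 is the lowest for 12 genes.

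The genes did not move as 1 block within groups. After each value was set against its group mean, the correlation between pairs of the 31 genes over the 16 arrays had a median of 0.11 and ran from -0.93 to 0.93 over 465 pairs. Without SMYD2 array 1 the median was 0.13 and the range -0.87 to 0.90. With FBL, the deviations of WDR43 correlated at -0.84 and those of WDR75 at 0.57, and at -0.87 and 0.75 without SMYD2 array 1. The points share arrays and replicate numbers, and these correlations are a description. FBL, WDR75 and WDR12 were lower on arrays 1 and 3 than on arrays 4 and 5 in all 4 groups, a pattern met by 3 of the 31 genes and 2.46% of all genes. WDR43 and NOP14 showed the opposite pattern, which 3.02% of all genes did.

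In a wider list of 98 measured biogenesis genes outside the 31, 1 fell (1.02%) and 0 rose in RB against control. Of all genes, 1.71% were called as lower and 1.24% as higher there. In RB plus SMYD2 against SMYD2, 6 fell (6.12%) and 1 rose, where 4.25% of all genes were called as lower and 2.94% as higher. With the block the counts were 3 lower and 1 higher, and 12 lower and 3 higher. The shares of all genes with the block were 3.47% lower and 3.61% higher, and 7.6% lower and 6.62% higher. The median differences were -0.04 and -0.10, with 64 and 71 of the 98 below 0, beside 48.2% and 47.8% of all genes below 0. BRIX1, a large-subunit assembly factor, fell in both, by -0.34 ± 0.09 (SE, adjusted p = 0.0428, limma) and -0.31 ± 0.09 (adjusted p = 0.0387). BRIX1 ranged over 9.29 to 9.46 in control and 8.92 to 9.21 with RB, and over 9.23 to 9.42 with SMYD2 and 8.88 to 9.16 with both. Neither pair of groups overlapped.

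NMD3, the adaptor that carries large subunits out of the nucleus, went the other way. It was 0.31 ± 0.09 higher in RB against control (SE, adjusted p = 0.0697, and 0.0100 with the block, limma) and rose by 0.29 ± 0.09 in RB plus SMYD2 against SMYD2 (adjusted p = 0.0484), with all 3 of its probe sets higher. EMG1, a methyltransferase of the small-subunit RNA, fell by -0.37 ± 0.09 (adjusted p = 0.0166, limma) and DDX55, a helicase of the large subunit, by -0.39 ± 0.11 (adjusted p = 0.0448) in RB plus SMYD2 against SMYD2. TTF1, which ends transcription by RNA polymerase I, differed there by -0.40 ± 0.18 (adjusted p = 0.214, and 0.00336 with the block), and RIOK2, a kinase of late small subunits, by 0.41 ± 0.23 (adjusted p = 0.355). In RB against control TAF1A, of the selectivity factor of RNA polymerase I, and UTP23 differed by -0.31 ± 0.21 and -0.30 ± 0.20 without passing.

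Ribosomal protein genes, the products that the machinery assembles, differed little. Of 53 measured, 0 passed in limma in RB against control and 0 in RB plus SMYD2 against SMYD2, with 0 and 4 at an unadjusted p under 0.05 and 0 and 1 passing with the block. All 53 lay within 0.25 log2 units of 0 in both comparisons, and the medians were 0.00 and -0.02. The widest in RB against control were RPL27A at 0.18 ± 0.10, RPL36A at 0.11 ± 0.14, RPS15 at -0.07 ± 0.05 and RPL10A at 0.07 ± 0.04 (SE). Against SMYD2 they were RPL8 at -0.11 ± 0.04, which passed with the block (adjusted p = 0.0493, limma), RPL36 at -0.11 ± 0.05, RPS15 at -0.10 ± 0.05 and RPL36A at -0.10 ± 0.14. Arrays are known to compress differences between strong signals such as these.

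**Figure D4:**
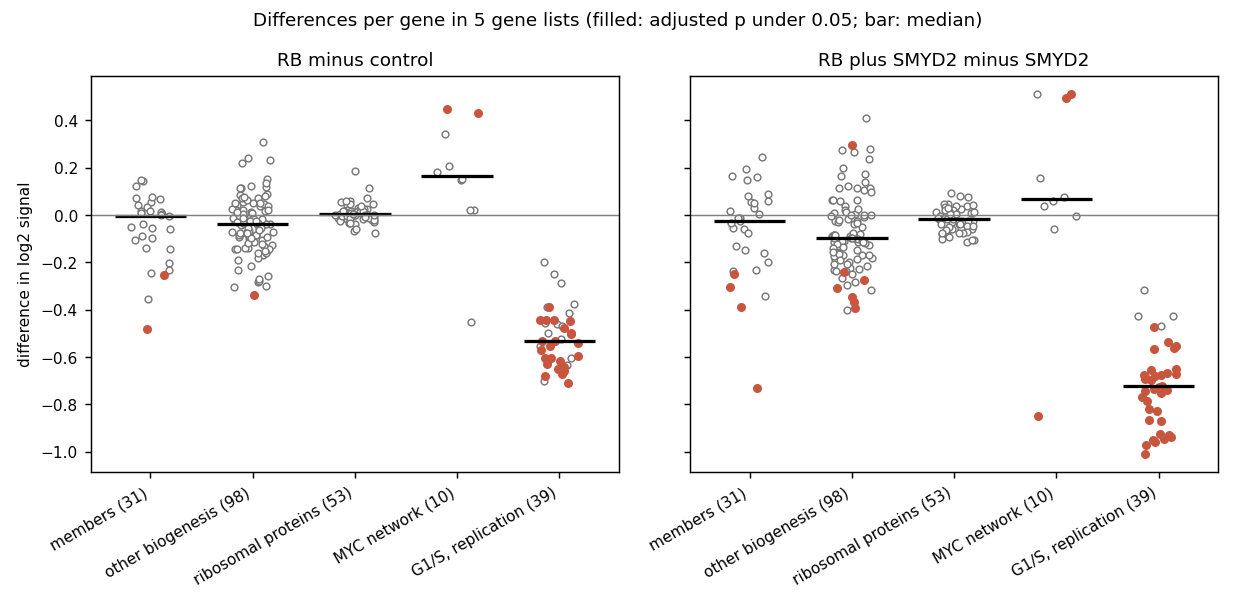
Difference in log2 signal (vertical axis) of each gene in 5 lists, in RB minus control (left) and RB plus SMYD2 minus SMYD2 (right); filled points passed an adjusted p of 0.05 and bars are medians. The lists of ribosome biogenesis and ribosomal protein genes centre near 0, and the list of G1/S and replication genes lies below 0 throughout, with medians of -0.53 and -0.72.

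MYC, the activator of many of these genes, was not lower with RB. MYC averaged 11.10 ± 0.367 in control (SD, n = 4) and 10.90 ± 0.497 in the SMYD2 group, against 11.44 ± 0.188 after RB and 11.41 ± 0.165 after both. The groups overlapped, except that every RB array was above every SMYD2 array. Its difference was 0.34 ± 0.20 (SE) in RB against control (adjusted p = 0.545, limma) and 0.51 ± 0.20 in RB plus SMYD2 against SMYD2 (adjusted p = 0.163, and 0.00647 with the block). Of the MAX partners known for opposing MYC, MXD1 rose by 0.45 ± 0.09 and 0.51 ± 0.09 (adjusted p = 0.0141 and 0.00233) and MXI1 by 0.43 ± 0.09 and 0.49 ± 0.09 (adjusted p = 0.0174 and 0.00305, limma). MXD3, another such partner, was lower by -0.45 ± 0.14 in RB against control (adjusted p = 0.0999, and 0.0261 with the block) and fell by -0.85 ± 0.14 against SMYD2 (adjusted p = 0.000767, limma). Of 10 genes of this network measured, 2 rose and 0 fell in the first comparison, and 2 rose and 1 fell in the second.

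Set beside these, 24 of 39 genes of the G1/S step and DNA replication fell in RB against control and 35 of 39 in RB plus SMYD2 against SMYD2, with 0 rising in either. Their median differences of -0.53 and -0.72 compare with -0.01 and -0.03 for the ribosome biogenesis genes on the same scale. FBL, at -0.48 and -0.73, lay near those medians. Of 17 interferon-stimulated genes, a marker of response to transfected DNA, 0 passed in RB against control (6 at an unadjusted p under 0.05, limma). With the block, 1 was higher and 1 lower there. In SMYD2 against control 0 passed. In RB plus SMYD2 against control 2 fell and 0 rose, where 4.2% of all genes were called as lower. In RB plus SMYD2 against SMYD2, where both groups were transfected, 1 fell, and 4.25% of all genes were called as lower.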

How the data were processed

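The authors deposited a log2 signal for each of 54675 probe sets on 16 arrays, made with RMA, per the submitters' processing notes, which give no version. RMA corrects background, normalizes by quantiles and summarises the probes of a set and keeps no detection call. Because it gives every array 1 distribution of signals, a change of all transcripts at once would not show. The number of arrays limits the precision. Array medians lay between 5.59 and 5.64, and arrays of a group correlated at 0.981 to 0.998. At most 0.0805% of probe sets read identically on any pair of arrays, so no array was treated as a copy of another.

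Gene names came from the platform annotation: 41097 probe sets carried 1 symbol, 1801 several and 11777 none. Each gene was represented by its single-symbol probe set with the highest mean over the 16 arrays, which gave 19775 genes. limma 3.58.1 in R 4.3.3 fitted 1 mean per group to all 16 arrays (lmFit, then eBayes with a trend). Tests were two-sided and adjusted by Benjamini-Hochberg over all 19775 genes within each of 7 comparisons, with a threshold of 0.05. The script was tested on simulated data. The members and the other gene lists were chosen with earlier results of these data known.

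Same-numbered arrays deviated together from their group means: the lowest correlation of their deviations was 0.145 in the 5 pairwise comparisons that passed the limit of 0.1 at every number. In RB minus SMYD2 it was -0.0772 at number 5, so pairing was not taken as given for that comparison and the interaction. The replicate block was still run for both, as an alternative only. Every member may be named, and values on all 16 arrays are given for FBL, NCL, NPM1, POLR1B, UBTF and the members that passed and were among the 3 smallest p-values of a comparison. From 3 other lists, the 4 largest differences in each of the 2 comparisons of RB against its matched group are named, with MYC. Alternatives were another choice of probe set, a filter at a mean of 6, median centring, a further quantile normalization, no trend, array weights, a fit of only the groups compared, the replicate number as a block, and leaving out each array. Figures were drawn with matplotlib 3.10.9.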

Additional observations from a re-analysis of the deposited data

Results flagged for a closer look

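In 11 of the 124 sets of 4 arrays (31 genes in 4 groups), 1 array lay far from the other 3 by Dixon's test of the gap over the whole range; chance alone does this in about 1 in 20 such sets. RRS1 was picked out in every group: at 9.76 log2 signal on control array 1 and 9.59 on SMYD2 array 1, the lowest of their groups, and at 10.24 on RB array 3 and 10.04 on RB plus SMYD2 array 3, the highest of theirs. The arrays numbered 1 in control and SMYD2 are those with the highest ACTB 3′ excess, whose part in this was not tested. PNO1 was lowest on control array 1, at 10.29. NCL, at 12.75, and NPM1, at 13.96, were lowest on SMYD2 array 1. POLR1A was lowest on SMYD2 array 4, at 8.70, and on RB plus SMYD2 array 4, at 8.82. POLR1C was highest on RB plus SMYD2 array 1, at 9.86, and LYAR was highest on SMYD2 array 3, at 9.89.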

How the results depend on the processing

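In RB against control the number of the 31 genes called moved from 2 to 0 with the median over probe sets, the most variable probe set, median centring or no trend, to 1 with only the groups compared, to 4 with array weights, and to 0 to 3 when an array was left out. With the replicate block it was 3. In RB plus SMYD2 against control it moved from 2 to 4 with the replicate block, 1 with quantile normalization, 9 with array weights, and 1 to 3 when an array was left out. Array weights also raised the share of all genes called as lower, from 4.2% to 8.85% there and from 1.71% to 5.10% in RB against control. In RB plus SMYD2 against SMYD2 it moved from 4 to 1 with only the groups compared and to 2 to 6 when an array was left out, and was 6 with the replicate block. In RB against SMYD2 it moved from 1 to 3 with the replicate block, the filter at a mean of 6 or array weights, to 2 with quantile normalization or no trend, and to 0 with only the groups compared or, at the lowest, when an array was left out (0 to 2); the median difference there was -0.0721 with the median over probe sets. Of all genes, 3.25% were called in either direction in RB against SMYD2 in the main fit, and 1.86% as lower. With the block these shares were 9.26% and 4.42%, and with array weights 9.05% and 4%. A fit of only the groups compared has fewer arrays, and the causes of these moves were not tested. In the other 3 comparisons the number stayed 0 under every alternative run. Over 16 gene results and 25 alternatives each, 317 values kept their side of the threshold, 58 no longer passed, 25 came to pass and 0 changed sign. The number of arrays limits what small differences can show. The part of the high ACTB 3′ excess on SMYD2 array 1 was not tested.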
